A study of Saccharomyces cerevisiae with 8 samples.

Results

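The genes described here encode the sensors and the kinase cascade of the yeast cell wall integrity pathway. They were chosen by name, as every probe set annotated to exactly 1 gene among WSC1, WSC2, WSC3, MID2, MTL1, ROM2, PKC1, BCK1, SLT2 and RLM1. All 10 were found among the 5656 genes with such a probe set, each with a single probe set, and WSC1 is listed in the R64 gene table under the symbol SLG1. The arrays came from Saccharomyces cerevisiae of the strain labelled 4073, for which the labels give no genotype, grown in YPD medium to mid-log phase. Control cultures (controls 1 to 4, n = 4) had no drug. Gentamicin cultures (gentamicin 5 to 8, n = 4) were adapted to the drug and kept in it, at 500 µg/ml per the sample labels, while the series' design text gives that number in milligrams per ml. Gentamicin is an aminoglycoside antibiotic that binds ribosomal RNA. Nothing in the labels says whether the samples of a group were separate cultures, so p-values measure only the spread between these samples, which may be technical.

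The cell wall integrity pathway senses stress at the yeast surface. Membrane-spanning sensors of the Wsc and Mid2 types signal through exchange factors such as Rom2 to the GTPase Rho1, which activates protein kinase C, Pkc1. Pkc1 drives a MAP kinase cascade of Bck1, the pair Mkk1 and Mkk2, and Slt2, and Slt2 phosphorylates the transcription factor Rlm1, which turns on genes for wall proteins and wall synthesis and SLT2 itself. Much of this signalling runs through phosphorylation, which RNA arrays do not measure.

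Each array gave a signal in arbitrary units, scaled to a common trimmed mean (1001 on all 8 arrays). The median signal was 381 to 398 on control arrays and 321 to 338 on gentamicin arrays. Over 4524 tested genes, the median log2 difference, gentamicin minus control, was -0.12. Of these genes, 46.8% were called in either direction at an adjusted p under 0.05 (limma), 15.5% higher and 31.3% lower, and the groups of arrays did not overlap for 44.8%. The split between higher and lower calls depended on scaling: it was 702 against 1414 as deposited, 849 against 895 after quantile normalization and 1079 against 799 with aligned array medians. The ratio of 3′ to 5′ signal of the ACT1 control, a measure of RNA quality, overlapped between groups, from 1.24 to 1.47 in controls and from 1.33 to 1.54 with gentamicin. All signals of the 10 genes lay above the highest signal of 16 array controls for absent transcripts (89.5), the lowest being 170.6 for MTL1 in control 2.

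The pathway genes moved in both directions. SLT2, MTL1 and RLM1 rose with gentamicin, BCK1, WSC2, MID2 and WSC1 fell, and WSC3, PKC1 and ROM2 did not pass the test. Thus 7 of the 10 were called, 3 higher and 4 lower, against the 46.8%, 15.5% and 31.3% of all tested genes given above. The 10 genes were chosen with earlier results of these arrays known, so these shares are a description only. MTL1 passed the signal filter (a geometric mean of 214 over the 8 arrays) only through its gentamicin arrays, so its difference is partly a condition of its being tested, while the other 9 passed it in both groups. At a threshold of 0.01 the call held for 5 of the 10 (SLT2, MTL1, BCK1, WSC2 and MID2), against 31.1% of tested genes. Groups did not overlap for 8 of the 10: 3 lay wholly above the controls, against 15.2% of tested genes, and 5 wholly below, against 29.6%. The median log2 difference of the 10 genes was -0.19, beside -0.12 for all tested genes. In RNA from whole cultures, fewer cells expressing a gene and less RNA of it per cell cannot be told apart.

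**Figure D1:**
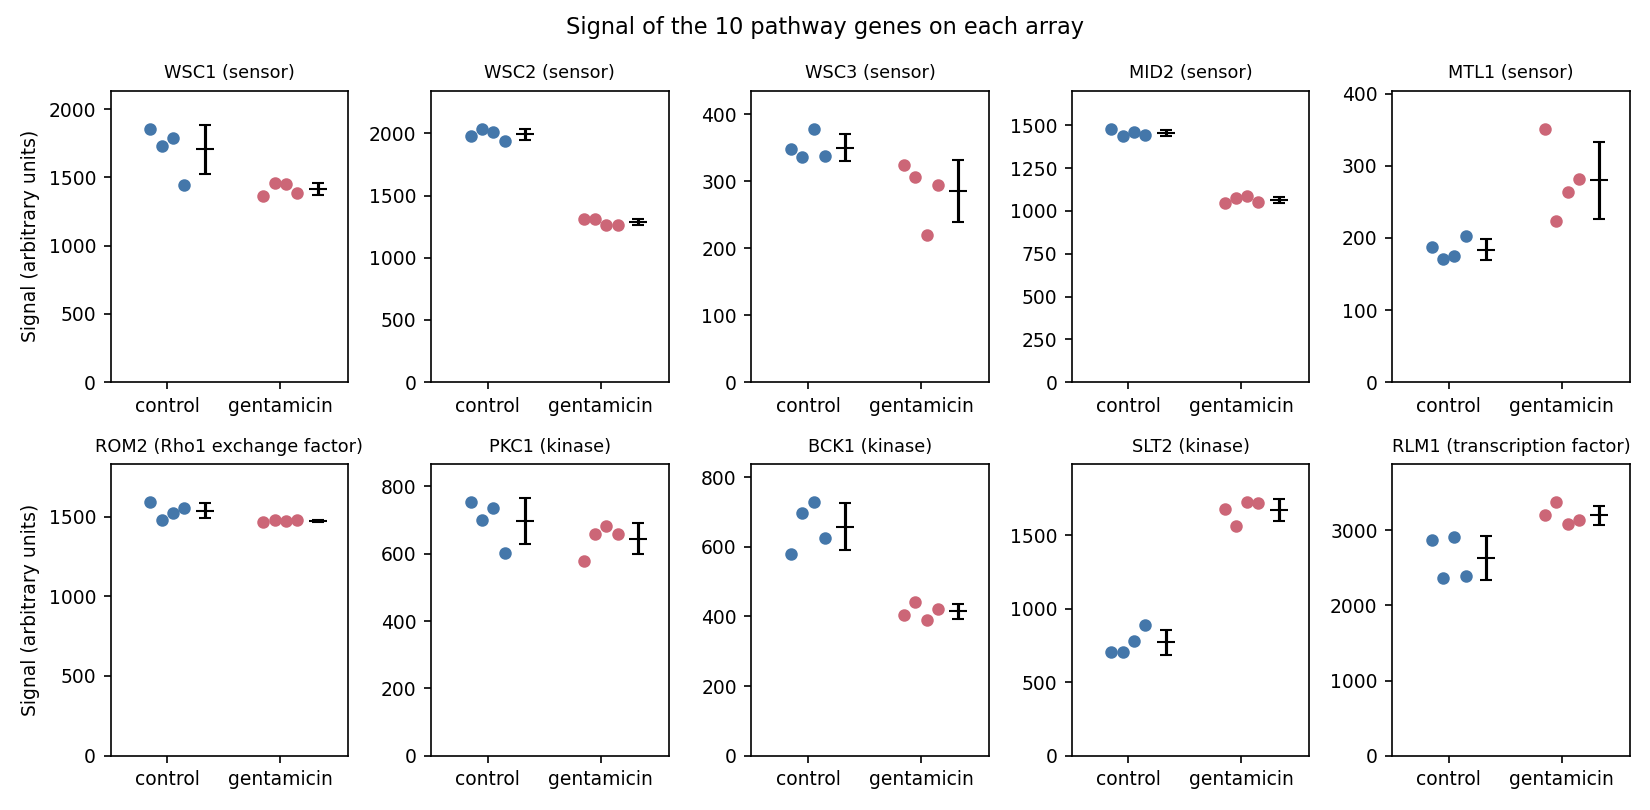
Signal in arbitrary units on each of the 8 arrays for the 10 pathway genes, with each gene on its own axis from 0. Points are arrays, and the bars to their right give the group mean and SD (n = 4). SLT2, MTL1 and RLM1 lie higher on every gentamicin array, and WSC2, MID2 and BCK1 lie lower on every one. WSC3 and ROM2 also lie lower on each, by small gaps and without a call. The groups of WSC1 and PKC1 overlap.

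Among the 5 sensors, 3 fell, 1 rose and 1 did not pass the test, beside 31.3% lower and 15.5% higher among all tested genes. The median log2 difference of the 5 was -0.30, beside -0.12 for all tested genes. The fall of WSC1 and the rise of MTL1 carry limits given below. The Wsc sensors have a cysteine-rich domain outside the cell and a heavily mannosylated stalk. WSC2 gave signals of 1980, 2039, 2010 and 1941 in controls 1 to 4 and of 1312, 1310, 1264 and 1266 in gentamicin 5 to 8. The groups were far apart compared with their spread: a gap of 629 units separated the lowest control from the highest gentamicin array. WSC2 fell 1.55-fold, from 1992 ± 41.9 (SD, n = 4) to 1288 ± 26.5, with a log2 difference of -0.63 ± 0.06 (SE) and an adjusted p of 3.56e-05 (limma). Of all tested genes, 9.73% had a larger decrease.

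WSC1, which is regarded as the main sensor for heat and for wall stress during growth, gave 1859, 1728, 1790 and 1444 in controls and 1366, 1462, 1449 and 1388 with gentamicin. Control 4 lay below gentamicin 6 and 7, so the groups overlapped. The mean went from 1705 ± 182 to 1417 ± 46.4, a log2 difference of -0.26 ± 0.09 (SE) with an adjusted p of 0.0323. This call was lost after quantile normalization (adjusted p = 0.108) and with aligned array medians (0.319), and also without control 1, 2 or 3 or gentamicin 5, 7 or 8 (adjusted p from 0.0521 to 0.0799). Relative to the median of all tested genes, WSC1 was 0.14 log2 units lower.

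WSC3, a paralog of WSC2, was a dimmer probe set, with 349, 336, 379 and 337 in controls and 325, 306, 219 and 295 with gentamicin. All gentamicin values were below all control values, by 10.5 units at the nearest, but gentamicin 7 was well below the other 3. Its log2 difference of -0.30 (95% interval -0.59 to -0.02) had an adjusted p of 0.0760. Without gentamicin 5 the difference was -0.37 and was called (adjusted p = 0.0461), and it was also called with array weights (0.0426). After quantile normalization the WSC3 difference shrank to -0.0738 (adjusted p = 0.694). Without gentamicin 7 it was -0.182, again without a call. With aligned array medians it was also smaller and not called. WSC4, a further gene of the Wsc type that was picked out here after its values were seen, fell 1.48-fold from 615 ± 18.5 to 418 ± 48.1 (adjusted p = 0.00132).

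MID2 and MTL1 are paralogs that encode the other type of sensor, with a long mannosylated stalk and no cysteine-rich domain. Their transcripts moved in opposite directions. MID2, named for the death of its mutants after exposure to mating pheromone, gave 1481, 1437, 1460 and 1444 in controls and 1049, 1077, 1086 and 1053 with gentamicin. These groups were tight, with coefficients of variation of 1.35% and 1.67%, and lay 351 units apart. MID2 fell 1.37-fold, from 1456 ± 19.7 to 1066 ± 17.8, with a log2 difference of -0.45 ± 0.06 (SE) and an adjusted p of 0.000223.

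MTL1, whose product is known from responses to oxidative stress and glucose starvation, was the dimmest of the probe sets, with 188, 170.6, 175 and 202 in controls and 352, 223, 263 and 281 with gentamicin. Every gentamicin array lay above every control array, though the nearest were only 20.8 units apart and gentamicin 5 stood highest. MTL1 rose 1.505-fold (95% interval 1.21 to 1.87), from 184 ± 14.2 to 279.8 ± 53.7, with an adjusted p of 0.00748. The call was kept without any single array, with log2 differences from 0.47 to 0.69. Larger increases were seen for 6.21% of tested genes. MTL1 passed the signal filter only through its gentamicin arrays. Its being tested thus depended partly on that difference, and its p and rank are no separate support.

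Markers of mating type are given here because MID2 is tied to the pheromone response. All 4 alpha-cell markers fell, MF(ALPHA)2 by 7.25-fold and SAG1, the alpha-agglutinin, by 3.24-fold, and their summed signal was 30998 to 32905 in controls and 15251 to 16361 with gentamicin. Of 6 a-cell markers only MFA1 passed the signal filter, through its control arrays alone, and it fell 4.59-fold (727 ± 89.7 to 164 ± 56.0). By its name (f_at) the MFA1 probe set may also match similar sequences. The sum of the 6 markers was 1242 to 1437 in controls and 569 to 737 with gentamicin, and the MFA1 probe set made up most of that difference. STE2, the receptor of a cells, and AGA2 stayed below the highest absent control of their array in both groups. STE2 gave 42.7 ± 12.3 and 37.8 ± 5.32, and AGA2 gave 47.8 ± 3.91 and 26.4 ± 9.81. The part of these markers in the MID2 result was not tested.

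ROM2 encodes an exchange factor that loads Rho1 with GTP at the sensors' tails. Its signals were 1592, 1482, 1526 and 1551 in controls and 1465, 1480, 1476 and 1478 with gentamicin. The gentamicin values lay just below the lowest control, by 1.48 units, and had the smallest spread of any group of the 10 genes (coefficient of variation 0.457%). The log2 difference was -0.06 with a 95% interval from -0.19 to 0.07 (adjusted p = 0.406), an interval that ends at a 1.14-fold decrease. With aligned array medians the difference had the opposite sign, 0.086, and was not called. The paralog ROM1 was not called either (log2 difference 0.22, adjusted p = 0.237), with 747 ± 118 in controls and 874 ± 147 with gentamicin; with array weights it was called (0.32, adjusted p = 0.0491).

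Of the 3 kinases, 1 rose, 1 fell and 1 did not pass the test, beside 15.5% higher and 31.3% lower among all tested genes. So few genes give no result about kinases as a group. PKC1, the only protein kinase C of this yeast, gave 754, 699.6, 735 and 602 in controls and 577, 659, 684 and 658 with gentamicin. These ranges overlapped. Its log2 difference was -0.11 (95% interval -0.32 to 0.10, adjusted p = 0.360), and it turned to 0.070 after quantile normalization and to 0.035 with aligned medians, without a call. Relative to the median of all tested genes PKC1 stood 0.013 log2 units higher.

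BCK1, the kinase at the head of the MAP kinase module, fell. The controls gave 580, 696, 729 and 625 and the gentamicin arrays 405, 442, 389.6 and 422. No values overlapped, and the nearest arrays of the 2 groups were 138 units apart. BCK1 went from 657 ± 67.4 to 415 ± 22.5, a 1.58-fold decrease (95% interval 1.37 to 1.83) with an adjusted p of 0.000460. A larger decrease was seen for 8.64% of tested genes.

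SLT2, the MAP kinase at the end of the cascade, had the largest change of the 10 genes. Its signals were 706, 705, 779.5 and 891 in controls and 1676, 1561, 1726 and 1717 with gentamicin. The lowest gentamicin array stood 669 units above the highest control, a gap larger than the whole range of either group. SLT2 rose 2.18-fold (95% interval 1.89 to 2.50), from 770.3 ± 88.0 to 1670.1 ± 76.1, with an adjusted p of 2.37e-05. Only 40 of the 4524 tested genes, or 0.884%, had a larger increase. Among the 18 alternatives run, its log2 difference ranged from 1.08 to 1.27 and was called in each.

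RLM1, the transcription factor that Slt2 activates, gave 2868, 2370.3, 2912 and 2393 in controls and 3207, 3376, 3078 and 3138 with gentamicin. Controls 2 and 4 were lower than controls 1 and 3, and all gentamicin arrays lay above them, by 166 units at the nearest. RLM1 rose 1.22-fold (95% interval 1.07 to 1.39), from 2636 ± 295 to 3200 ± 129, with an adjusted p of 0.0210. The call was lost without control 2 (adjusted p = 0.0607), control 4 (0.0568) or gentamicin 6 (0.0507), while it was kept after quantile normalization and with aligned medians. Larger increases were seen for 15.7% of tested genes.

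**Figure D2:**
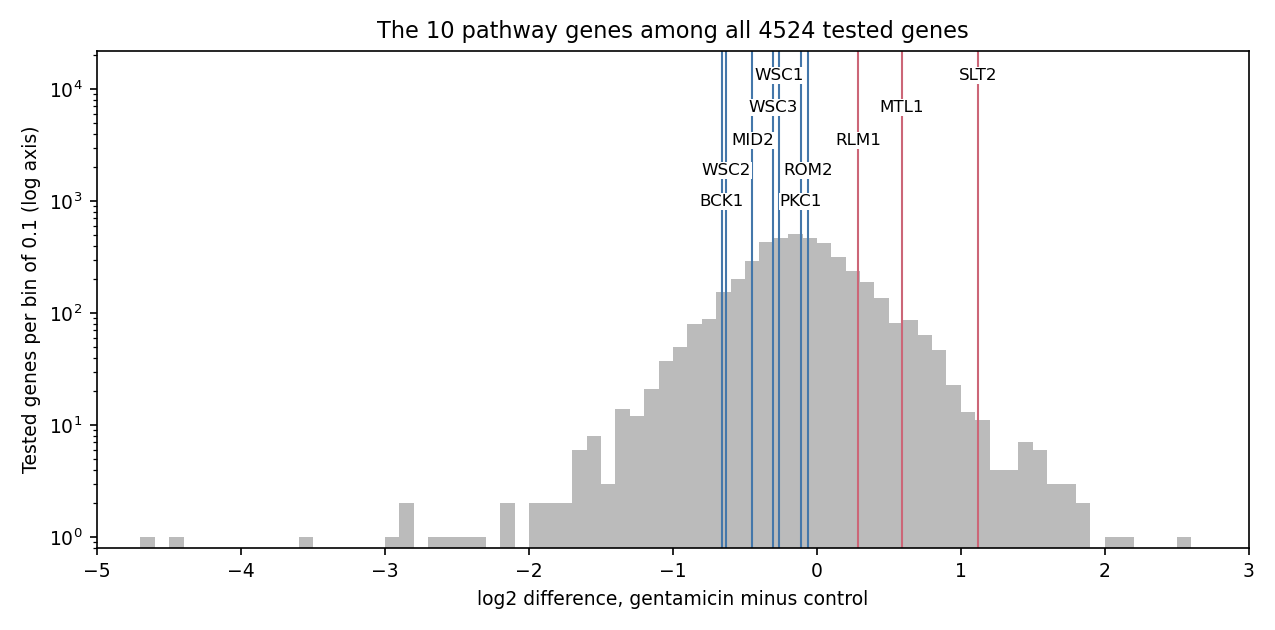
Histogram of the log2 difference, gentamicin minus control, over all 4524 tested genes in bins of 0.1, with a log count axis. Vertical lines mark the 10 pathway genes, red above 0 and blue below 0, called or not. SLT2 lies far into the upper tail with 0.884% of genes beyond it, while PKC1 and ROM2 lie near the centre.

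Whether pathway genes changed unequally was tested on the log2 ratio of paired genes within each array, where a scale factor of the whole array cancels. For 12 pairs, the ratio was compared between groups by exact two-sided permutation of the 8 arrays, which cannot give a p below 0.0286. The ratio differed for 8 pairs, all at that smallest p and with an adjusted p of 0.0429 over the 12. In 7 of these, both genes lay above the absent controls of every array. In each of the 8 the gentamicin arrays did not overlap the controls. Among single genes, 44.8% of those tested had groups that did not overlap, and the share among other gene pairs was not measured. The pairs are not independent, since several share SLT2. For SLT2 to BCK1, MID2 to MTL1 and RLM1 to SWI4, the outcome was fixed by the single genes. The genes of each such pair lay wholly on opposite sides of their controls, so the ratios could not overlap. These ratios are no separate support. Each adjusted p rests on many pairs reaching the smallest p together, the fixed ones included.

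Along the cascade, the ratio of SLT2 to BCK1 rose 3.44-fold, a log2 change of 1.78 from 0.23 ± 0.22 (SD, n = 4) to 2.01 ± 0.14. The SLT2 to PKC1 ratio rose 2.35-fold, and PKC1 to BCK1 rose 1.46-fold, so the 3 kinases differed pairwise. RLM1 rose less than SLT2, with a 1.79-fold lower ratio. The RLM1 ratio to SWI4, which encodes the DNA-binding part of another factor under Slt2, was the one passing pair with a gene not clear of background: SWI4 gave 132 ± 16.2 and 97.2 ± 10.1 and, on gentamicin 5, 87.2 beside a highest absent control of 89.5, so no fold is given. SLT2 also rose against KDX1, its paralog, by 2.15-fold. KDX1 itself (181 ± 26.5 and 184 ± 32.97), like SWI4, lay below the signal filter in both groups and was not tested alone.

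Between the sensors, the ratio of MID2 to MTL1 fell by 1.04 on the log2 scale, from 2.99 ± 0.11 to 1.95 ± 0.29. That outcome was fixed by the opposite moves of MID2 and MTL1, and MTL1 passed the signal filter only through its gentamicin arrays. The ratio of WSC1 to WSC2 rose by 0.37. For WSC2 against WSC3 the change was -0.32 (exact p = 0.114, adjusted p = 0.152), which passed only after quantile normalization (-0.52, adjusted p = 0.0381). WSC1 to WSC3 changed by 0.04 (exact p = 0.857). ROM2 to ROM1 changed by -0.28 (exact p = 0.171), and MKK1 to MKK2 by -0.09 (exact p = 0.743).

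**Figure D3:**
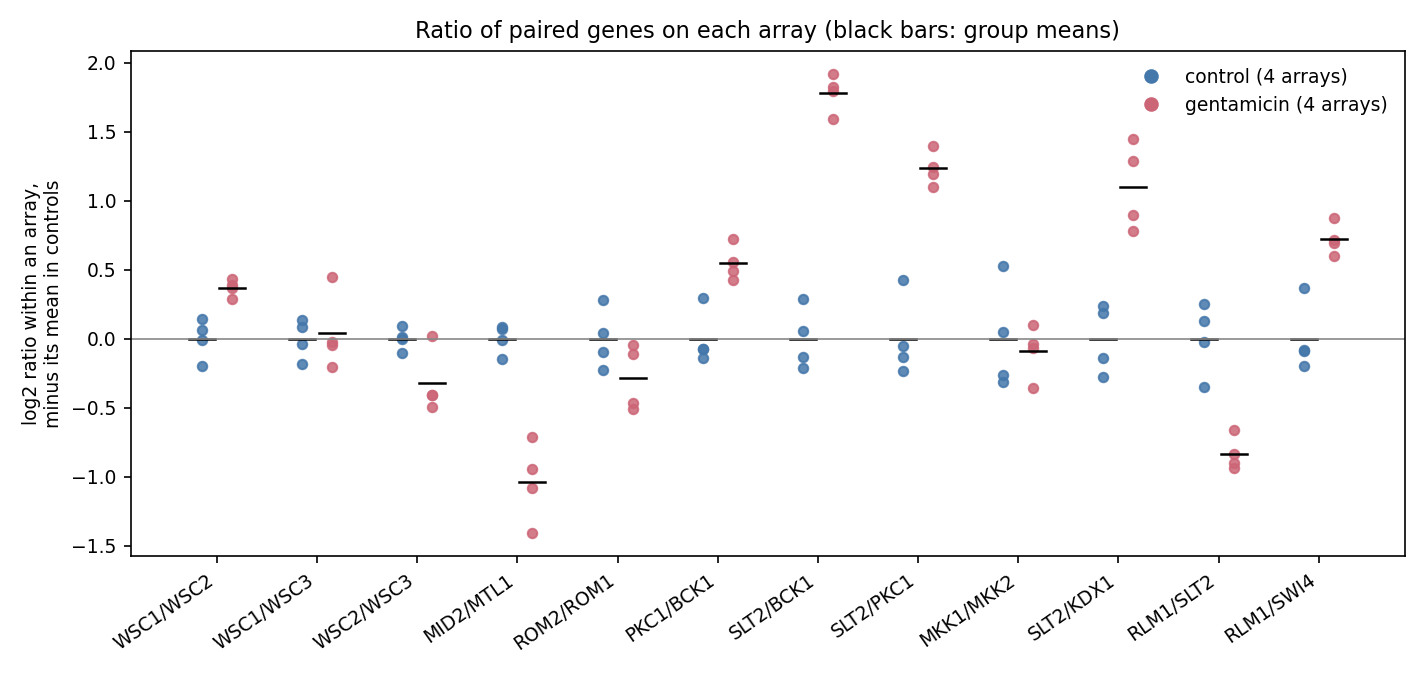
Within-array log2 ratio of 12 gene pairs, each minus its mean in controls, for the 4 control (blue) and 4 gentamicin (red) arrays. Black bars are group means. The ratios of SLT2 to BCK1, PKC1 and KDX1 lie above 0 on every gentamicin array, and MID2 to MTL1 and RLM1 to SLT2 lie below 0 on each.

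A further 19 pathway genes were listed, of which 15 were tested: 2 rose, 4 fell and 9 did not pass, with a median log2 difference of -0.10. These 40% called are near the 46.8% of all tested genes. In the group of Rho1 and its regulators, 50% of 6 tested genes were called, also near that 46.8%. RHO1, the GTPase, had a log2 difference of 0.20 from 4986 ± 475 to 5728 ± 560 (adjusted p = 0.111). That difference was called with aligned medians (adjusted p = 0.0156) and without gentamicin 6 (0.0345). BAG7 and SAC7 encode related GTPase-activating proteins that switch Rho1 off, and they moved in opposite directions.

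BAG7 gave 104, 94.4, 129.7 and 108 in controls and 447, 488, 498 and 565 with gentamicin. Its control values were close to the highest absent control on those arrays (83.6), and every gentamicin value lay at least 317 units above them. BAG7 rose 4.59-fold (95% interval 3.80 to 5.54, adjusted p = 3.67e-06). It passed the signal filter only through its gentamicin arrays (geometric means 108 and 498), as the one such gene among the 15, so its being tested depended on that difference. SAC7 fell 1.53-fold, from 537 ± 26.4 to 353 ± 40.8 (adjusted p = 0.00101). LRG1, a further such protein, was left out of the test by the signal filter, with 284 ± 57.7 in controls and 97.1 ± 21.9 with gentamicin.

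TUS1, another exchange factor of Rho1, fell 1.44-fold (adjusted p = 0.00973), but not after quantile normalization (0.130) or with aligned medians (0.0534). Its other tested probe set gave a log2 difference of -0.30 without a call.

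Neither kinase between Bck1 and Slt2 passed the test. MKK1 gave 920.3 ± 84.9 in controls and 951 ± 109 with gentamicin, a log2 difference of 0.05 (95% interval -0.19 to 0.28, adjusted p = 0.745). For MKK2 the values were 327 ± 57.6 and 356 ± 24.3, a log2 difference of 0.14 (95% interval -0.17 to 0.44, adjusted p = 0.439), which was called only after quantile normalization (adjusted p = 0.0483). SPA2, a scaffold of polarised growth that binds the cascade's kinases, fell 1.45-fold with the probe set used (adjusted p = 0.0275). By its name (s_at) that probe set may also match similar sequences, and its call was lost after quantile normalization (adjusted p = 0.178), with aligned medians (0.0994) and without control 2, 3 or 4 or gentamicin 7 or 8 (0.0538 to 0.0738). A second tested SPA2 probe set fell by 0.84 on the log2 scale, and the other had a difference of -0.09 without a call.

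SDP1, which encodes a stress-induced phosphatase that acts on Slt2, rose along with SLT2. Its signals were 746, 877, 814 and 817 in controls and 2094, 1742, 2030 and 2089.6 with gentamicin. All 4 gentamicin values stood at least 865 units above the controls. The increase was 2.44-fold (95% interval 2.14 to 2.78, adjusted p = 8.58e-06), and 28 tested genes had a larger one. MSG5, the related phosphatase that is present without stress, gave 409.8 ± 39.3 and 382 ± 41.7 (adjusted p = 0.462). SWI6, the partner of Swi4, fell 1.41-fold from 465 ± 12.6 to 332 ± 37.6 (adjusted p = 0.00258), a call narrowly lost after quantile normalization (0.0504).

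Of 15 genes that the pathway is known to regulate, all tested, 9 rose, 1 fell and 5 did not pass, beside 15.5% higher and 31.3% lower among all tested genes, with a median log2 difference of 0.30 beside -0.12 for all tested genes. These genes were listed with earlier results of these arrays known. The largest increases were those of PIR3, a wall protein linked to glucan, at 4.19-fold (2065 ± 117 to 8661 ± 488), PST1, a wall protein induced by damage, at 3.61-fold, and NCW2 at 3.31-fold. CWP1, a wall mannoprotein, fell 1.55-fold from 739.9 ± 30.6 to 478 ± 32.6 (adjusted p = 0.000189).

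The catalytic subunits of glucan synthase, FKS1 and GSC2, are named here after their values were seen. GSC2, the subunit induced by stress, rose 2.28-fold from 1223 ± 60.6 to 2793 ± 147 (adjusted p = 4.26e-06), and all 6 of its tested probe sets rose. FKS1, the subunit of normal growth, gave 3736, 3767, 3676 and 3760.4 in controls and 6372, 5915, 6453 and 540 with gentamicin. Gentamicin 8 thus stood far below the rest, and with it FKS1 was not called (log2 difference -0.14, adjusted p = 0.888). Without gentamicin 8 the log2 difference was 0.74 (adjusted p = 0.000118). Of the 7 tested FKS1 probe sets, 4 were called higher and none lower. FKS1 and GSC2 are similar in sequence, so probe sets of the s_at type may pick up both.

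**Figure D4:**
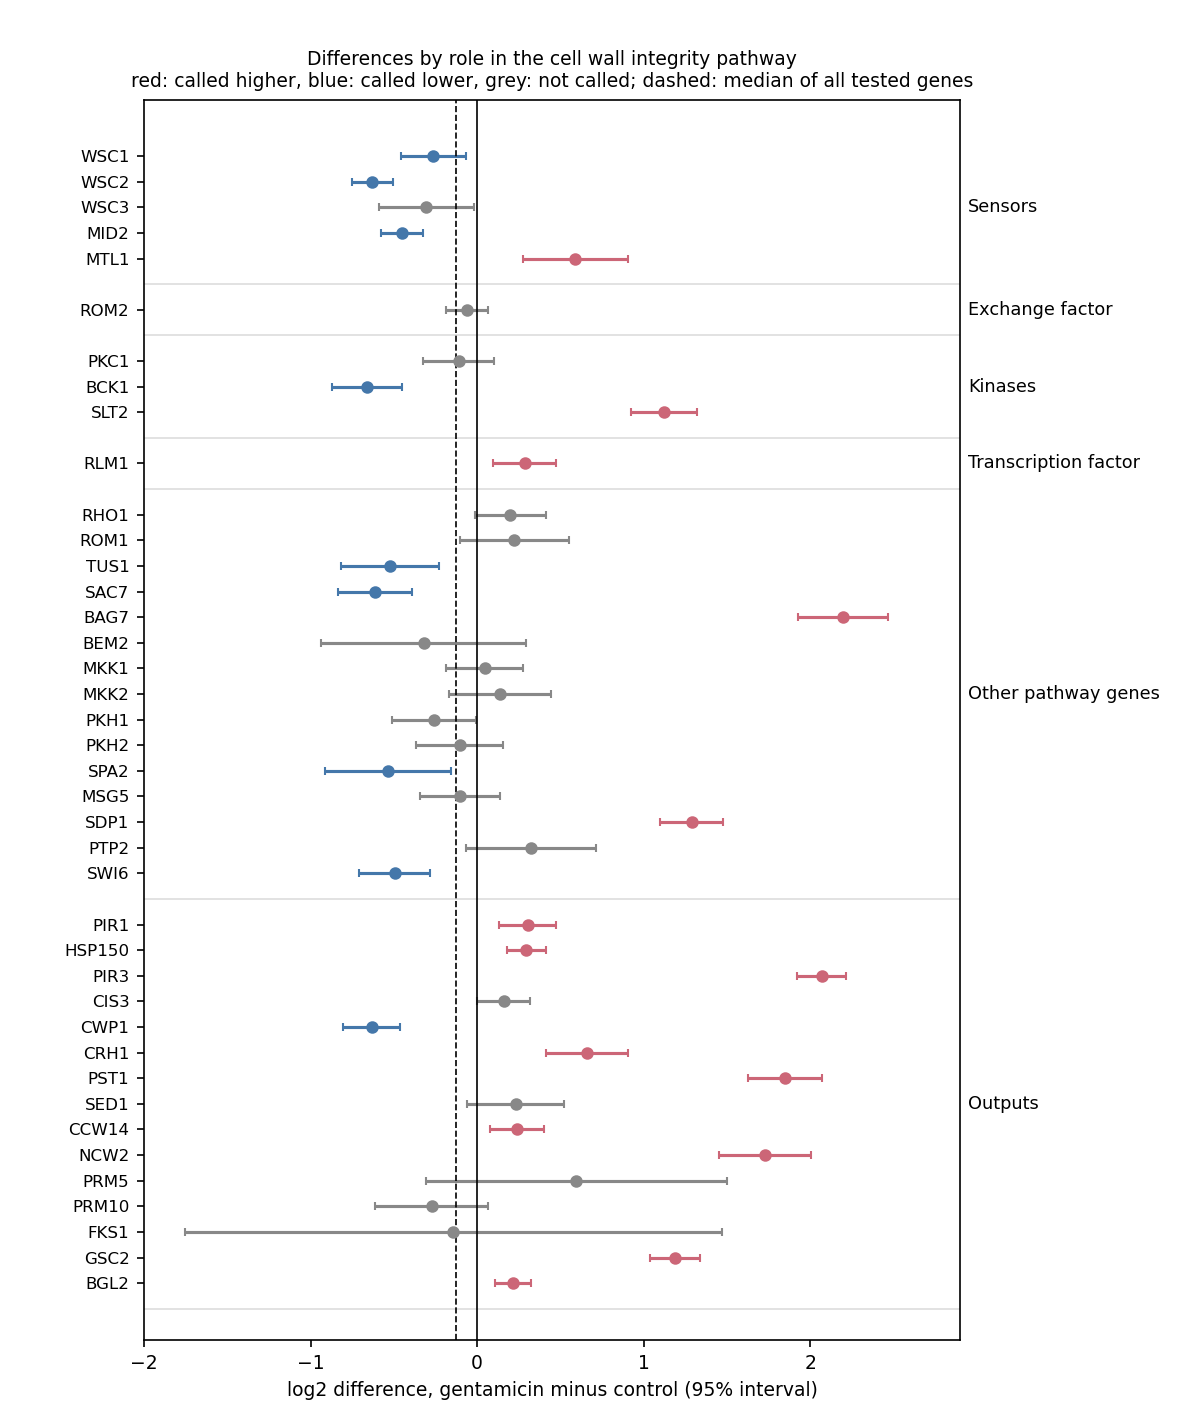
Log2 difference, gentamicin minus control, with 95% intervals for the 10 pathway genes by role, the 15 other tested pathway genes and the 15 output genes. Red points were called higher, blue lower and grey not called; the dashed line is the median of all tested genes, -0.12. Of the output genes 9 are red, while sensors and kinases hold all 3 colours.

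On the osmolarity pathway, which ends in another MAP kinase, 1 of 8 tested genes rose and 3 fell, with a median log2 difference of -0.07, shares near the 15.5% and 31.3% of all tested genes. HOG1, its MAP kinase, rose 1.25-fold from 2881 ± 210 to 3600 ± 200 (adjusted p = 0.00549), and SHO1, a membrane sensor, fell 1.53-fold (adjusted p = 0.00541). On the pheromone pathway, 5 of 9 tested genes fell and none rose, with a median of -0.39, beside 31.3% lower and 15.5% higher among all tested genes. They included STE12, its transcription factor, which fell 2.13-fold, and GPA1, the G protein alpha subunit, which fell 2.04-fold. Differences between these pathways and the cell wall integrity genes were not tested.

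Over the 8 arrays, the genes whose log2 signal followed SLT2 most closely were RTS3, RTC3 and LSP1 (Pearson r = 0.996, 0.995 and 0.995). RTS3 rose 2.04-fold, RTC3 1.61-fold and LSP1, an eisosome component, 1.30-fold. Since a difference between the groups alone gives a high r, 8.76% of tested genes had an r above 0.9 with SLT2. The closest to RLM1 were OPY2, a membrane anchor in MAP kinase signalling, at 0.982, FLC1 at 0.961 and GAS5, a glucan-remodelling enzyme, at 0.958. OPY2 rose 1.24-fold and FLC1 1.31-fold, whereas GAS5 was not called (log2 difference 0.14, adjusted p = 0.0824), except with aligned medians (adjusted p = 0.00559), with array weights (0.0137) and without control 1 (0.0365). With RLM1, 0.796% of tested genes had an r above 0.9.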

How the data were processed

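RNA was measured on 8 one-colour Affymetrix yeast arrays, 4 per group. The deposited intensities are linear signals, 1 per probe set and array, made by the authors with MAS5 per the submitters' processing notes; version, settings and genome build are not given in the sources used here. The trimmed mean (lowest and highest 2% left out) was 1001 on every array, so each had been scaled.

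Of 9335 probe sets, 6504 list 1 gene; all their identifiers matched the R64 gene table. Genes with several probe sets were represented by the brightest, by mean log2 signal. Signals were taken to log2 with no offset, the dimmest 20% of 5656 genes were left out, and the remaining 4524 entered lmFit and eBayes with a variance trend (limma 3.58.1, R 4.3.3), with Benjamini-Hochberg adjustment over all of them and a call at adjusted p under 0.05. The step was tested on simulated arrays with independent noise, where 100 genes changed 1.5-fold and 100 changed 2-fold. It recovered 79 and 95 of them, with 11 false among 185 calls. Far fewer genes changed there than were called here, and scaling did not differ, so the simulation does not check the effect of scaling on these calls. The number of arrays limits precision. Pairs were tested with exact permutations in SciPy 1.17.1. Alternatives were quantile normalization, aligned medians over tested genes, an offset of 8.17 units, no filter or a 40% filter, no trend, array weights, the median over probe sets, each array left out, a threshold of 0.01 and, added after seeing the data, replacement of single low values.

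Members and lists were chosen with earlier results of these data known. Named genes are the 10 members; RHO1, ROM1, MKK1, MKK2 and KDX1; called genes of the further pathway list; up to 3 called outputs per direction by size; up to 2 called genes of other lists; and the 3 genes closest to SLT2 and to RLM1. LRG1, MSG5, SWI4, STE2, AGA2, FKS1, GSC2 and WSC4 are named outside this rule.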

Additional observations from a re-analysis of the deposited data

Results flagged for a closer look

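None of the 20 groups of 4 arrays of the 10 pathway genes held a value far from its others by Dixon's criterion. Among 90 groups of the genes named in the text, AGA2 left out, 4 did, and chance alone marks about 1 group in 20. FKS1 had 540 on gentamicin 8, against 5915 to 6453 on the other gentamicin arrays. STE12 had 831 on control 3, against 731 to 742 on the other controls, and GPA1 had 293 on gentamicin 6, against 332 to 339. STE2, which lay below the highest absent control in both groups, had 29.9 on gentamicin 7, against 40.1 to 41.0 on the other gentamicin arrays.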

How the results depend on the processing

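Over 18 alternatives, SLT2, WSC2, MID2 and BCK1 kept direction and call in all, as did MTL1 in the 17 that tested it. WSC1 lost its call in 9 and RLM1 in 4, and WSC3 gained one in 2. Reversals were seen for ROM2 with aligned medians (0.086), for PKC1 after quantile normalization (0.070) and with aligned medians (0.035), and for FKS1 with aligned medians (0.0040), the median over probe sets (0.50) and low values replaced (0.74). Over fits that each left out 1 array, FKS1 ran from -0.45 to 0.74, MKK1 from -0.016 to 0.10, the WSC1 to WSC3 ratio from -0.091 to 0.13, the MKK1 to MKK2 ratio from -0.20 to 0.084 and the count of lower outputs from 1 to 2. The WSC1 to WSC3 ratio was -0.13 after quantile normalization. The causes were not tested.

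Of all tested genes, 895 were lower after quantile normalization, 799 lower and 1079 higher with aligned medians, and 915 lower at a threshold of 0.01. Of the further pathway genes, 1 was lower after quantile normalization, 2 with aligned medians, 2 with the median over probe sets, 7 without a filter, where 19 were tested, and 0 with the 40% filter, where 7 were tested and 1 was higher; array weights gave 4 higher. For the osmolarity list, quantile normalization and aligned medians each gave 2 higher and 1 lower, and the 0.01 threshold 1 lower. Array weights gave 2 lower outputs. No paired analysis was possible because the groups share no replicate numbers, and pairs have no test without an array, since 4 against 3 cannot pass the threshold.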
